A study of Homo sapiens with 2 samples.

Results

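The nuclear genes of the mitochondrial respiratory chain and of the mitochondrial ribosome were examined for contacts of their RNA with DDX18, a nucleolar protein of the DEAD-box family of RNA helicases. Genes were chosen by symbol among the protein-coding genes of the RefSeq gene table: the symbols that begin with NDUF, UQCR, ATP5, MRPL or MRPS, SDHA to SDHD, the COX genes of subunit numbers from COX4 to COX8, CYC1 and CYCS. This gave 175 genes, 98 of the respiratory chain and 77 of mitochondrial ribosomal proteins. Their peaks filled 120 of the 17163 entries of the deposited list, at 116 of its 16095 positions. The rule rests on symbols and uses no measured value, but the genes were chosen with earlier results of these data known.

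The measurement was iCLIP, in which ultraviolet light links a protein to the RNA it touches and the linked RNA is sequenced. The only group was H9, an established human embryonic stem cell line, with expression of 3XFlag-DDX18 and under normal culture on inactivated mouse embryonic fibroblasts, and both of its samples carry the tagged protein. Cells were irradiated once at 254 nm with 160 mJ/cm2 and DDX18 was pulled down through its Flag tag. The 2 samples share 1 list of significant peaks on hg19, so no value per sample and no spread between samples can be given, no untagged or input sample was used here, and no test was made. The labels do not give the cell source of each sample or how many clones carried the tag.

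Each peak has a height, a whole number of overlapping reads or cross-link events as the authors deposited it, with no scaling to depth or to the abundance of the RNA. Which of these it counts, and the total reads, no source used here gives. Heights in the list started at 3 and had a median of 8. As the cells were measured in bulk, fewer cells with an RNA and less of that RNA per cell cannot be told apart. Of 10 embryonic stem cell markers 8 had a peak, LIN28A, L1TD1, DNMT3B and CRIPTO the highest with 36, 28, 23 and 18, while POU5F1 and SOX2 had none in the list. Of 8 fibroblast markers 4 had one, THY1 with 39, COL1A1 with 17, COL1A2 with 16 and PDGFRB with 6. Of all protein-coding genes 31.0% had a peak. That share lies below the exact interval of the stem cell markers (44.4 to 97.5%) and inside that of the fibroblast markers (15.7 to 84.3%). The fibroblast markers therefore cannot be told apart from all protein-coding genes by their share. Whether feeder cells contributed to any peak was not tested.

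The respiratory chain moves electrons from NADH and succinate through complexes I to IV to oxygen and stores the energy as a proton gradient, which ATP synthase (complex V) uses to make ATP. A few of its subunits are encoded in mitochondrial DNA and are made by the mitochondrial ribosome, whose own proteins are all encoded in the nucleus. The mRNAs considered here are therefore transcribed in the nucleus and translated in the cytosol, and their proteins are imported.

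Genes of the respiratory chain carried DDX18 peaks more often than genes of the mitochondrial ribosome. A peak was called in 48 of 98 respiratory chain genes (49.0%, exact 95% interval 38.7 to 59.3) and in 16 of 77 mitochondrial ribosomal protein genes (20.8%, interval 12.4 to 31.5), a difference of 28.2 percentage points. Of all 20056 protein-coding genes 31.0% had a peak, which lies below the interval of the respiratory chain and inside that of the mitochondrial ribosome. The background includes genes that these cells may not express, since the list holds no expression values. Intervals cover counting error over genes only, and genes are not replicates of a condition.

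**Figure D1:**
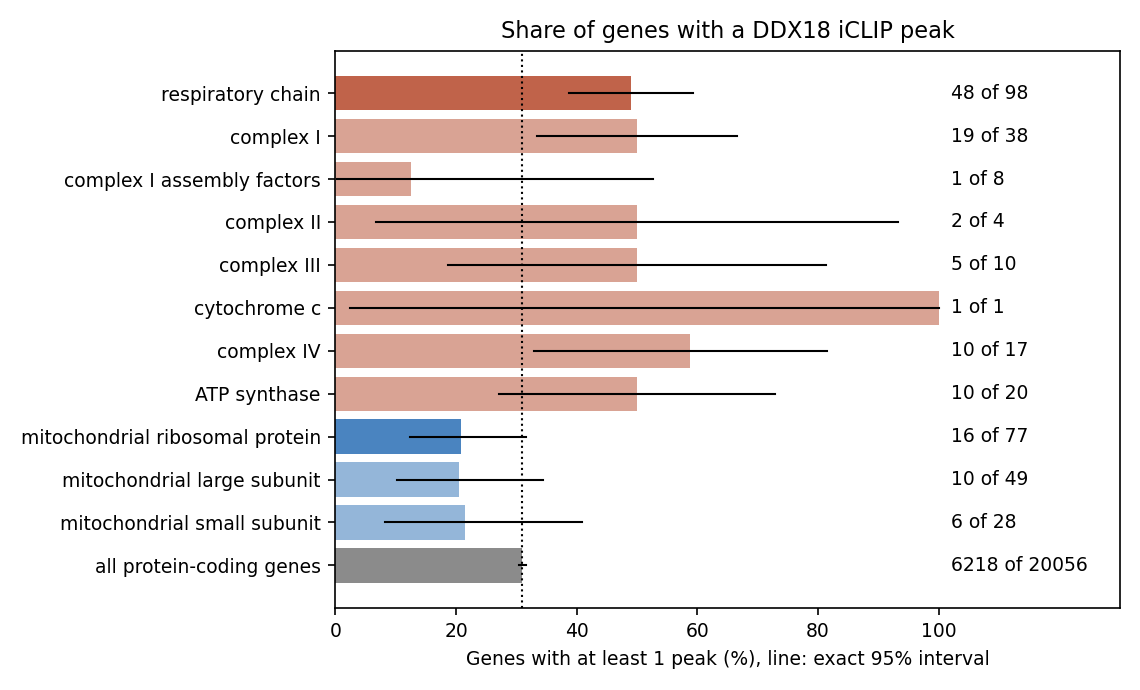
Share of genes with at least 1 peak, in percent, for the respiratory chain and its complexes, the mitochondrial ribosome and its subunits, and all protein-coding genes; lines are exact 95% intervals and the dotted line marks the share of all protein-coding genes. Complexes I to IV and ATP synthase lie between 50% and 58.8%, both ribosomal subunits near 21%.

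Within the chain the shares of the complexes were close to each other, with wide intervals on few genes. Complex I, the entry point for NADH, had a peak in 19 of 38 genes (50%, interval 33.4 to 66.6). Complex II, which oxidises succinate, had one in 2 of 4 (6.76 to 93.2) and complex III in 5 of 10 (18.7 to 81.3). Complex IV, the oxidase, had one in 10 of 17 (58.8%, 32.9 to 81.6) and ATP synthase in 10 of 20 (27.2 to 72.8). The intervals of complexes II and III and of ATP synthase hold the 31.0% of all protein-coding genes. Those of complexes I and IV lie above it. CYCS, the gene of cytochrome c, had a peak of height 9 in its last coding exon. Among the 8 complex I assembly factors, which the NDUF symbols also take in, only NDUFAF6 had a peak, of height 6 in its first intron. The large subunit of the mitochondrial ribosome had peaks in 10 of 49 genes (20.4%, 10.2 to 34.3) and the small subunit in 6 of 28 (21.4%, 8.30 to 41.0), and both intervals hold the background.

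Gene length went with these shares. The 175 genes have a median length of 8922 nt from start to end, and all protein-coding genes a median of 24093 nt. Among genes of up to 8922 nt, 20 of 48 respiratory chain genes (41.7%, 27.6 to 56.8), 4 of 40 mitochondrial ribosomal protein genes (10%, 2.79 to 23.7) and 10.8% of all protein-coding genes had a peak. Among longer genes the respiratory chain had one in 28 of 50 (56%, 41.3 to 70.0), the mitochondrial ribosome in 12 of 37 (32.4%, 18.0 to 49.8) and all protein-coding genes in 38.1%. In both length classes the interval of the respiratory chain lay above the share of all genes, and that of the mitochondrial ribosome held it. Mitochondrial ribosomal genes with a peak had a median length of 38698 nt and those without one 8105 nt, a wider gap than in the respiratory chain, with 11770 nt and 8008 nt. This division by length was added after the data had been seen.

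**Figure D2:**
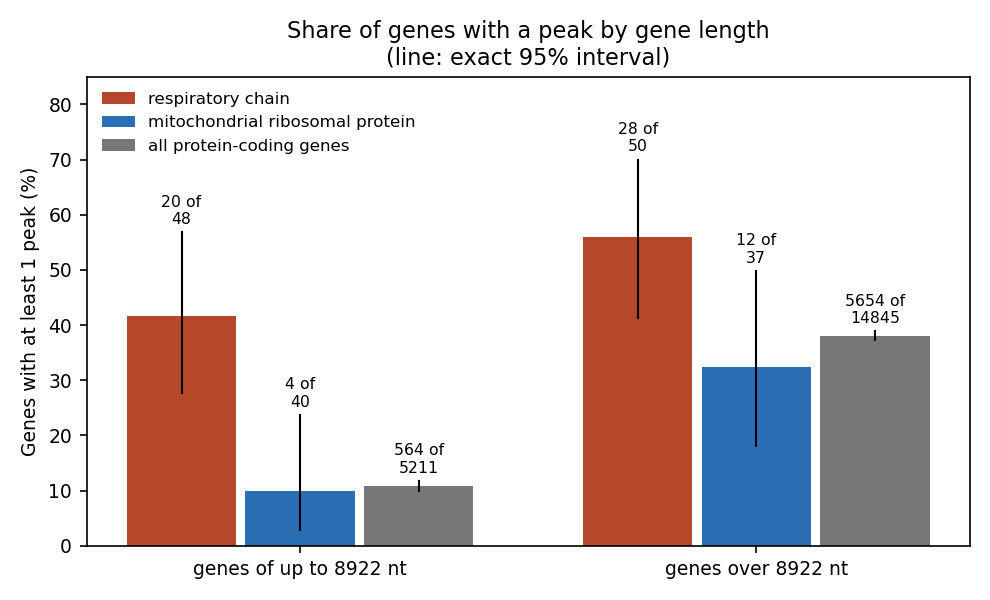
Share of genes with at least 1 peak, in percent, for respiratory chain genes, mitochondrial ribosomal protein genes and all protein-coding genes, divided at the median length of the 175 genes; lines are exact 95% intervals and numbers give genes with a peak of all genes. Respiratory chain bars stand above the other bars in both length classes, at 41.7% and 56%.

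Respiratory chain genes with a peak more often had several than mitochondrial ribosomal genes with a peak. Of the 48 respiratory chain genes 28 had 2 or more (58.3%), of the 16 mitochondrial ribosomal genes 1 did (6.25%), and of all protein-coding genes with a peak 47.3% did. At 3 or more peaks the respiratory chain, with 13 of 48, was close to all protein-coding genes with a peak, with 1706 of 6218. The mitochondrial ribosomal gene was MRPS27, which had 3 peaks of height 6. Counted over all genes, 28 of 98 respiratory chain genes, 1 of 77 mitochondrial ribosomal genes and 14.7% of all protein-coding genes had 2 or more peaks. The strongest peak of a gene had a median height of 9 in the respiratory chain (quartiles 7 and 12, range 5 to 94), of 6 in the mitochondrial ribosome (quartiles 6 and 8, range 4 to 23) and of 7 in all protein-coding genes with a peak (quartiles 6 and 10). With no replicate values these differences of a few height units have no error that could be set against them.

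Peaks in small RNAs had heights of 94, 55, 48 and 23, and peaks elsewhere in these genes reached 31, so the first 3 lay above all others and the last within their range. They took 4 of the 116 positions but 220 of the summed height of 1283, or 17.1%. ATP5F1B, which encodes the catalytic beta subunit of ATP synthase, hosts the C/D box snoRNAs SNORD59A and SNORD59B, small RNAs of the class that guides RNA methylation. Its peak of 94 lay at position 57038828 of chromosome 12 on the minus strand, 57 nt downstream of the start of SNORD59A, and was listed under that snoRNA as well. Its peak of 55 began at position 57037489, 48 nt downstream of the start of SNORD59B. Both snoRNAs are 75 nt long in the gene table, so both peaks fell in their 3' portion. MRPL3, of the large ribosomal subunit, had its only peak, of height 23, 110 nt into SNORA58, an H/ACA box snoRNA of the class that guides pseudouridylation. That position too was listed under the snoRNA. Without it 15 of 77 mitochondrial ribosomal genes had any.

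The highest peak of COX7C, a small subunit of complex IV, belongs with them. Its height of 48 was at position 85916363 of chromosome 5 on the plus strand, and the deposited annotation places it 49 nt downstream of the start of MIR3607. The gene table gives MIR3607 as an older name of SNORD138, a snoRNA inside COX7C. The sorting of peaks by SNORD or SNORA as the name of the nearest start therefore misses this peak. It also takes in 3 peaks of ATP5F1B that lay beyond the ends of the snoRNAs, of heights 17, 20 and 22. Of the 6 entries with such a name 3 lay inside the snoRNA. The other COX7C peak, of height 21, lay in coding exon 2 of 3.

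**Figure D3:**
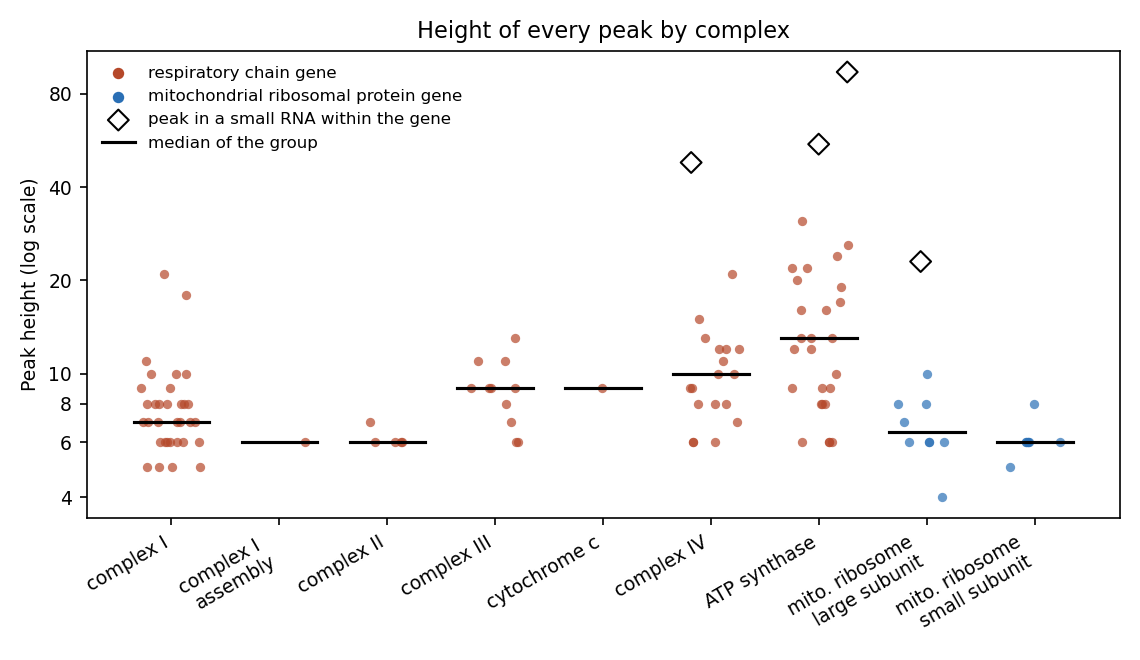
Height of every peak, on a log scale, by complex; each point is a peak position, open diamonds are peaks in small RNAs within the gene and horizontal bars are medians. The 4 diamonds are the highest points of their groups, at 94 and 55 in ATP synthase, 48 in complex IV and 23 in the large subunit. ATP synthase has the highest median over positions, 13, but ATP5F1A and ATP5F1B supply 9 and 6 of its 28 positions. The median of the strongest height per gene is 12 in ATP synthase and 11 in complex IV.

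ATP synthase had the highest peaks once small RNAs were set aside. ATP5F1A, which encodes the alpha subunit, had 9 peaks. Their heights along the transcript were 31 in coding exon 3, 16 and 12 in exon 5, 13 in exon 7, 22 in exon 8, 24 in exon 9, 10 in exon 10, 26 in exon 12 and 16 at the transcript end, of 13 exons. The peaks thus covered the coding sequence with no single site holding most of the height, which summed to 170. Outside the snoRNAs ATP5F1B had heights of 20 in coding exon 7 of 10 and 19 at the end of its transcript, besides the peaks of 22 and 17 downstream of its snoRNAs. ATP5PO, the subunit that joins the catalytic head to the stalk, had 13 in coding exon 6 of 7 and 9 at its end, both also listed under DONSON. ATP5MC2, a gene of the rotating c ring, had 13 at its end and 9 in coding exon 2 of 5. ATP5F1C, the gamma subunit of the central shaft, had 2 peaks of height 6. ATP5ME, ATP5MG and ATP5F1E had 1 peak each, of 9, 8 and 8. ATP5MF had 12 and 8, which its readthrough gene ATP5MF-PTCD1 shares beside 2 peaks of 6 that were also listed under PTCD1. No peak was listed for ATP5PB, ATP5PD, ATP5PF, ATP5F1D, ATP5MC1, ATP5MC3, ATP5MJ, ATP5MK, ATP5MGL or the inhibitor ATP5IF1.

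Complex IV carried peaks in most of its widely expressed subunits and in none of the tissue forms. COX4I1 had heights of 9, 11 and 15, in coding exons 2 and 3 of 5 and at its transcript end. COX5A, COX5B, COX6A1, COX6B1, COX6C, COX7A2 and COX8A had strongest peaks of 10, 13, 10, 6, 9, 12 and 12. COX7A2L, known for joining complexes into supercomplexes, had 7, 6 and 6, with 2 of the 3 in its 3' UTR. The forms of muscle, lung and testis, COX4I2, COX6A2, COX6B2, COX7A1 and COX8C, had a peak in 0 of 5 genes, which allows a share of up to 52.2% by the exact interval. These 5 genes are 630 to 7095 nt long, and 10.8% of all protein-coding genes of up to 8922 nt had a peak. That share lies inside the interval, so the tissue forms cannot be told apart from other short genes. COX7B, which is widely expressed, and COX7B2 also had none.

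In complex I the highest peaks were in accessory subunits. NDUFS5 had 21 at its transcript end and 8 in coding exon 2 of 3. NDUFB9 had 18 near its start and 7, 7 and 6 further on. The peak of 18 lay 172 nt downstream of the start of NDUFB9, and its annotation as a start site carries a transcript of another gene. Among core subunits, NDUFS1 had 7 and 6 and NDUFS3 had 8 and 7. NDUFV1, NDUFV2, NDUFS7 and NDUFS8, which hold flavin or iron-sulphur centres, had none. NDUFA13 had 10, 8 and 7, but all 3 positions were also listed under YJEFN3, so the gene of origin is uncertain there. The peak of 11 in NDUFA11 was also listed under FUT5, those of NDUFS3 under PTPMT1 and those of NDUFB8, 8 and 7, under SEC31B. NDUFB11 had 10 and 10, NDUFC2 had 9 and 8, and NDUFS6 had 8 and 8. NDUFB4 had 7, NDUFA7, NDUFB1, NDUFB5 and NDUFC1 had 6, and NDUFA5 and NDUFB7 had 5. The readthrough gene NDUFC2-KCTD14 had 5 peaks, the highest 9, and shares its peaks of 9 and 8 with NDUFC2. No peak was listed for NDUFS4, NDUFV3, NDUFA1, NDUFA2, NDUFA3, NDUFA6, NDUFA8, NDUFA9, NDUFA10, NDUFA12, NDUFAB1, NDUFB2, NDUFB3, NDUFB6 or NDUFB10.

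Complexes II and III had peaks of at most 13, most of them in coding exons. SDHA, the flavoprotein that oxidises succinate, had 7, 6 and 6 in coding exons 3, 6 and 8 of 14, and SDHB, the iron-sulphur subunit, had 6 in each of exons 2 and 4 of 8. The membrane anchors SDHC and SDHD had none. UQCRC1 and UQCRC2, the core proteins of complex III, had 13, 8 and 11, and 9, 7 and 6. CYC1, which encodes cytochrome c1, had 11 in coding exon 5 of 7, UQCRH 9, 6 and 9, and UQCR11 9. UQCRFS1, the Rieske iron-sulphur protein, had none, nor had UQCRB, UQCRQ, UQCR10 and UQCRHL.

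Mitochondrial ribosomal genes with a peak had a single one in 15 of 16 genes, all but MRPS27. Outside small RNAs their median strongest height was 6, close to the 7 of all protein-coding genes with a peak. In the large subunit MRPL12 had 10, in coding exon 4 of 5, but that position was also listed under SLC25A10. MRPL22 and MRPL32 had 8, MRPL17 had 7, MRPL23, MRPL27, MRPL37 and MRPL42 had 6, and MRPL48 had 4. In the small subunit MRPS6 had 8, MRPS21, MRPS35 and MRPS5 had 6 and MRPS9 had 5. No peak was listed for the other 39 genes of the large subunit and 22 of the small one. The peaks of MRPL23, MRPL42, MRPL48 and MRPS21 lay in introns, and so did 1 of the 3 in MRPS27. Outside small RNAs the strongest peak of the mitochondrial ribosome, 10, was lower than the median of ATP synthase, 12, for the strongest peak per gene.

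By region, coding exons held more peaks than any other annotation in both groups. Coding exons held 50 of the 98 positions of the respiratory chain (51.0%, 40.7 to 61.3), 8 of the 18 of the mitochondrial ribosome (44.4%, 21.5 to 69.2) and 47.8% of the positions of all protein-coding genes. Intervals over positions treat them as independent, although some genes hold several, such as ATP5F1A with 9 and ATP5F1B with 6. They may therefore be too narrow. Introns held 6 respiratory chain positions (6.12%, 2.28 to 12.9), 5 mitochondrial ribosomal positions (27.8%, 9.69 to 53.5) and 17.2% of those of all protein-coding genes. Positions labelled as transcript ends made up 19.4% in the respiratory chain (12.1 to 28.6), 5.56% in the mitochondrial ribosome (0.141 to 27.3) and 5.06% in all protein-coding genes, and 3' UTRs 7.14%, 5.56% and 18.7%. The end label covers a stretch on each side of the end and takes precedence over the 3' UTR, so both were also counted together. They then held 26.5% in the respiratory chain (18.1 to 36.4), 11.1% in the mitochondrial ribosome (1.38 to 34.7) and 23.8% in all protein-coding genes. Of the 20 end labels in these genes 11 carried a transcript of the called gene, and the peaks of 22 and 17 in ATP5F1B were among those that carried another. Of the 58 positions in coding exons, 45 were in internal exons (77.6%, 64.7 to 87.5), 6 in first (10.3%, 3.89 to 21.2) and 7 in last exons (12.1%, 4.99 to 23.3), against 85.3%, 4.56% and 10.1% in all protein-coding genes, each within its interval.

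**Figure D4:**
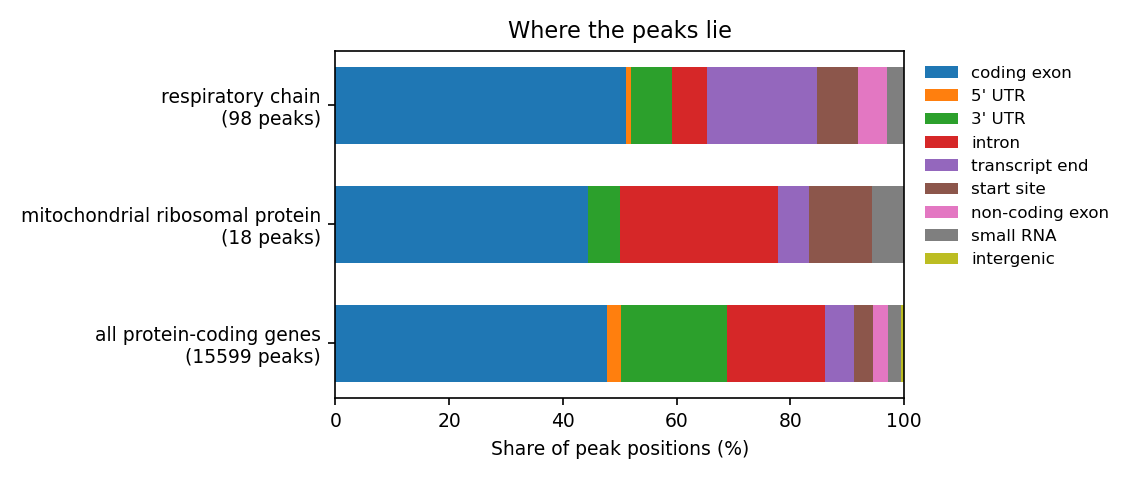
Share of peak positions by annotated region, in percent, for the respiratory chain, the mitochondrial ribosome and all protein-coding genes. The transcript-end part is 19.4% in the respiratory chain and 5.06% in all protein-coding genes, and the intron part is 27.8% in the mitochondrial ribosome, which rests on 5 of 18 peaks.

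Near the start of the gene, 12 positions lay within 200 nt downstream of the gene's own start site. In the respiratory chain these were in NDUFS6 (48 nt, height 8), NDUFB5 (50 nt, height 6), NDUFA13 (83 nt, height 8), COX6A1 (120 nt, height 10), COX7A2L (132 nt, height 6), COX5A and COX6B1 (both 167 nt, heights 8 and 6) and NDUFB9 (172 nt, height 18). In the mitochondrial ribosome they were in MRPS5 (81 nt, height 6), MRPL32 (95 nt, height 8), MRPL17 (113 nt, height 7) and MRPS9 (120 nt, height 5). All distances run to the nearest annotated start in the deposited list, with no matching count over all protein-coding genes. The start-site label held 7.14% of respiratory chain positions (2.92 to 14.2) and 11.1% of mitochondrial ribosomal positions (1.38 to 34.7). Both intervals hold the 3.29% of all protein-coding genes, while that of both groups together (7.76%, 3.61 to 14.2) lies above it. In MRPL32, NDUFA13 and NDUFB9 the start-site label carries a transcript of another gene.

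The deposited list gives each gene an expected height, the value against which its peaks were set, whose computation no source used here describes. Its median was 0.12 in respiratory chain genes with a peak (quartiles 0.0775 and 0.225), 0.07 in mitochondrial ribosomal genes (0.03 and 0.0825) and 0.05 in all protein-coding genes with a peak. Among the genes with the highest peaks outside snoRNAs, expected values were 0.56 in ATP5F1A, 1.47 in COX7C and 2.21 in ATP5F1B. NDUFB9 and NDUFS5 reached 18 and 21 on 0.08 and 0.18, while COX8A and CYC1 reached only 12 and 11 on 0.86 and 0.8. COX7C and ATP5F1B also hold peaks in small RNAs, and whether these enter their expected values was not tested. The ratio of height to expected height had a median of 64.0 in the respiratory chain, 100 in the mitochondrial ribosome and 100 in all protein-coding genes. The ratio cannot rank the groups, because only called peaks are listed and a low expected height alone then gives a high ratio. The lower quartile of peak height was 6.25 in the respiratory chain, 6 in the mitochondrial ribosome and 6 in all protein-coding genes. Whether RNA abundance sets the height or the expected height was not tested.

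**Figure D5:**
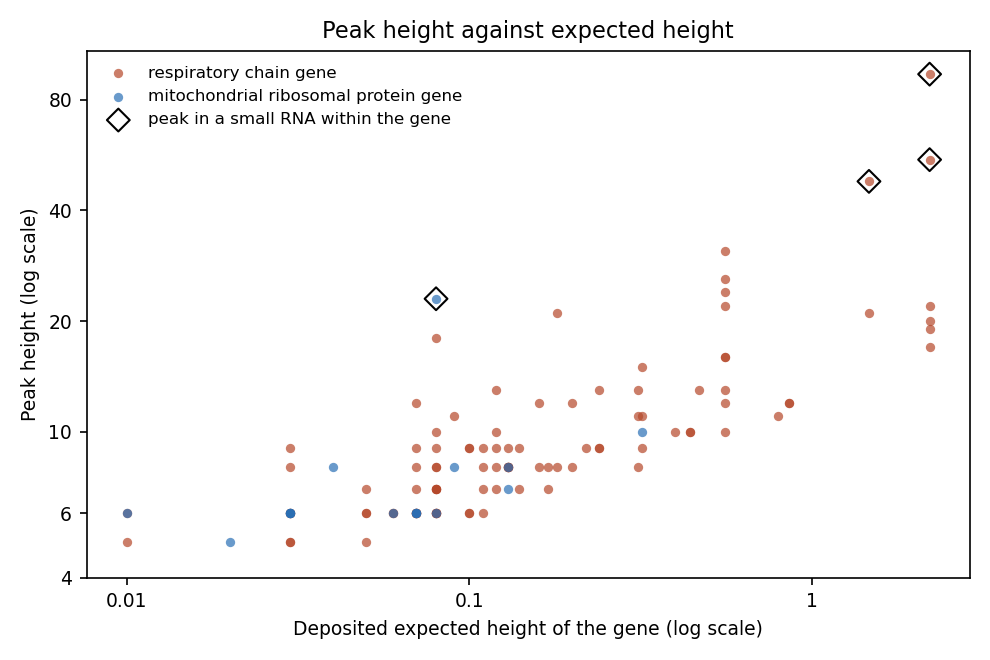
Peak height against the deposited expected height of the gene, both on log scales, for every listed peak whose expected height is above 0; open diamonds are peaks in small RNAs. Mitochondrial ribosomal genes lie at expected heights of up to 0.32, respiratory chain genes at up to 2.21.

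Outside small RNAs the median strongest height was 9 in the respiratory chain and 6 in the mitochondrial ribosome, below the 17.5 of cytosolic ribosomal protein genes and the 18 of glycolysis enzymes. Of 89 cytosolic ribosomal protein genes 50 had such a peak, as had 6101 of all 20056 protein-coding genes. With small RNAs counted, 68 of the 89 had a peak (76.4%, 66.2 to 84.8). Of 20 glycolysis enzymes 15 had one (75%, 50.9 to 91.3), led by ENO1, PKM, GAPDH and ALDOA with 94, 59, 47 and 41. Both shares were higher than the 49.0% of the respiratory chain (38.7 to 59.3), whose interval overlaps that of the glycolysis enzymes.

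Genes that assemble the chain or serve mitochondrial translation, taken as further genes of the pathway, had shares whose intervals held the background. Of 50 respiratory chain assembly genes 16 had a peak (32%, 19.5 to 46.7), with LRPPRC, which stabilises mitochondrial mRNAs, the highest at 21 over 13 peaks, and AFG3L2, COA1 and OXA1L at 9. Of 31 genes of mitochondrial translation and ribosome assembly 9 had one (29.0%, 14.2 to 48.0). PTCD3, itself a protein of the small subunit, led them with 77, at a small RNA inside the gene, followed by TUFM, the mitochondrial elongation factor, with 13. DAP3 and GFM1 had 6. Of 11 genes of mitochondrial transcription and its nuclear regulators 5 had one, GABPB1 and POLRMT with 9 and NRF1 and PPARGC1B with 6.

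Promoters of both groups held an ETS motif more often than all promoters did. Nuclear mitochondrial genes are known to be driven in part by GABP, a factor of the ETS family. The letters CCGGAAG, searched on both strands in 300 nt windows from 250 bases before to 50 after the start (RefSeq, GRCh38.p14), were found in 21 of 79 respiratory chain promoters (26.6%), 29 of 69 mitochondrial ribosomal promoters (42.0%) and 14.2% of all 15843 protein-coding promoters, with sequences for 148 of the 175 genes. In the respiratory chain the letters stood in 14 of 37 promoters of genes with a peak (37.8%, 22.5 to 55.2) and in 7 of 42 without one (16.7%, 6.97 to 31.4). In the mitochondrial ribosome they stood in 4 of 15 with a peak (26.7%, 7.79 to 55.1) and in 25 of 54 without one (46.3%, 32.6 to 60.4). Over all protein-coding promoters they stood in 17.2% with a peak and in 12.8% without one. Within each group the intervals overlap, and the difference was not tested. The core of the NRF1 motif, searched by the same means and able to share an end base with the ETS letters, was in 5 of 79 respiratory chain promoters (6.33%), 1 of 69 mitochondrial ribosomal promoters (1.45%) and 1.75% of all. A match is a description of the sequence, and iCLIP measures RNA and not promoter binding. Shown are 30 bases around the motif, in capitals, from some genes of each group with a peak and the motif upstream of the start. Not all such genes were ranked by peak height, so others with the motif may have higher peaks. The bases are read along the gene, and CTTCCGG is the motif on the other strand.
COX5B, chr2:97646014-97646043, plus strand: gaagcccgcccCCGGAAGtccctcctgtct
UQCR11, chr19:1605541-1605570, minus strand: actgtaagtggCTTCCGGgtctgcgcgcac
UQCRH, chr1:46303641-46303670, plus strand: agtgtgccgcaCTTCCGGccagatcgccgg
MRPL27, chr17:50373218-50373247, minus strand: ccacgcagggcCCGGAAGtagatctcctga
MRPL48, chr11:73787800-73787829, plus strand: aatttcagaagCTTCCGGaactaaaatgat

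These motifs ended 30, 90, 39, 45 and 56 bases before the start in that order, distances that the search window itself limits. The strongest peaks of the 5 genes were 13, 9, 9, 6 and 4.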

How the data were processed

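The authors deposited 1 list of significant iCLIP peaks for both samples. Per the file headers it was annotated with annotatePeaks.pl of HOMER; the genome hg19 and the tools BWA and FastQC 0.10.1 come from the submitters' processing notes. No source used here names the peak caller or its threshold. Peak height is a signal that the authors deposited in whole numbers; expected height and p-value stand in the peak name. Genes are those in which a peak was called, matched by Entrez identifier to the RefSeq table of GRCh38.p14 (6677 of 6695 matched), used for names, lengths and sequences only. Shares of peaks count each position once. Deposited distances to start sites are genomic, negative along the minus strand in 2231 of 2256 exon entries of genes nearest their own start, and were turned to run with the gene. A peak was placed in a small RNA when it overlapped the small RNA gene nearest its start (names missing from the table were given 120 nt) or an RNA repeat. Intervals are exact 95% binomial intervals (Clopper-Pearson, scipy 1.17.1) and cover counting error only. Those over peak positions treat positions in the same gene as independent. The counting code was tested on simulated data. By the naming rule, all chosen genes with a peak could be named, and of every other list the 4 with the highest peaks. POU5F1 and SOX2, which had none, were named after the values were seen. Values of some single genes are not reported here. The members and lists were chosen with earlier results of these data known. No group comparison was possible with 1 list, and reads per sample are unknown.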

Additional observations from a re-analysis of the deposited data

How the results depend on the processing

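The share of respiratory chain genes with a peak exceeded that of mitochondrial ribosomal genes in all 13 alternatives tried, by 16.2 to 32.0 percentage points, against 28.2 as reported. Taking the outer ends of both exact intervals, the difference spanned 7.20 to 46.9 points as reported, and held 0 with genes by nearest start (-5.72 to 36.9) and in longer genes (-8.53 to 52.0). The lowest difference came when peaks went to the gene whose start is nearest, which gave 33.8% for the mitochondrial ribosome. The shares themselves moved with the peaks counted. Counting peaks whose deposited p-value was no higher than the median, they were 27.6% in the respiratory chain and 6.49% in the mitochondrial ribosome, with heights of at least the median 34.7% and 6.49%, and with at least 2 peaks 28.6% and 1.30%. With exons and UTRs only the mitochondrial ribosomal share was 11.7%, and by gene length, an alternative added after seeing the data, 10% in shorter and 32.4% in longer genes. The median strongest height of the respiratory chain was 11 with that limit on p. Leaving out assembly factors, small RNAs and repeats, shared positions or readthrough genes, or adding genes by earlier symbols (the readthrough genes, and COXFA4, COXFA4L2 and DAP3, being choices made after seeing the data), left the shares inside their intervals. The background by protein length was not run, as protein sequences were not used here. No paired analysis was possible because both samples are in 1 group and share 1 list, and for that reason no sample could be left out. Without reads per sample, a gene with no listed peak is not shown to lack contact.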
